A study of Mus musculus with 6 samples.

Results

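Tubulin genes and the genes for enzymes and cofactors that act on tubulin were examined in mouse type II alveolar epithelial cells, which make pulmonary surfactant. They were chosen by symbol and role, without regard to their values: alpha-, beta-, gamma-, delta- and epsilon-tubulins, the Tubgcp subunits of the gamma-tubulin complex, the Ttll ligases, the Agbl carboxypeptidases and the folding cofactors Tbca to Tbce. Of 19938 genes with a probe set of their own, 44 met this description, namely 17 tubulins, 5 Tubgcp subunits, 12 Ttll enzymes, 5 Agbl enzymes and 5 folding cofactors. A further 7 probe sets, whose annotation joins a tubulin symbol with another symbol, were kept out of the comparison.

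Microtubules are hollow polymers of alpha- and beta-tubulin dimers, nucleated from rings of gamma-tubulin. New tubulin is folded and paired with the help of the Tbc cofactors. The tubulin tails on the outside of the polymer carry chains of glutamate or glycine, added by Ttll ligases, and Agbl carboxypeptidases trim the glutamate. These chains are best known from stable microtubules such as the axonemes of motile cilia, which in the lung beat on the ciliated cells of the airways.

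RNA was measured on 6 Affymetrix arrays, each with the pooled type II cells of 3 mice aged 8 weeks. On 3 arrays, labelled knockout, the mice carried the transgenes SP-C-rtTA and (tetO)7CMV-Cre and were Gpr116flx/flx, and on 3 control arrays the mice carried the same pair of transgenes and no conditional allele. The surfactant protein C (SP-C) promoter drives the Cre system in the lung epithelium, and both groups carried Cre. Which cells of the pools carried the deletion was not tested. The cells were obtained by collagenase digestion and differential plating, and RNA was taken 2 h after isolation. The comparison asked how loss of the adhesion receptor Gpr116 changes the transcripts of these cells. Values are log2 expression values as the authors deposited them, so a difference of 1 is a doubling, and levels of different probe sets are not compared with each other because each probe set has its own response.

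The probe set of the targeted gene Gpr116, listed as Adgrf5, does not show a loss. This 1 probe set read 11.89, 11.78 and 11.87 there, against 11.49, 11.53 and 11.51 on the control arrays (limma adjusted p = 0.0119). Its position relative to the deleted exons could not be checked, and every direction below is that of the labels. The 10 type II markers averaged 12.50 to 12.54 on the arrays labelled knockout and 12.43 to 12.45 on the control arrays. Of these 10, 1 was called higher, the lamellar body protein Lamp3 (0.32 ± 0.07, limma adjusted p = 0.0337, and 0.0522 with a replicate block). On each array labelled knockout 5 were higher than on any control array, and 1, Sftpa1 at -0.04, was lower. The shares of all genes were 14.8% and 12.8%. Signal of ciliated cell markers was also present, averaging 7.92 to 8.46 on the arrays labelled knockout and 9.05 to 9.11 on the control arrays over 24 genes, of which 22 passed the test, all lower. Of 15 markers of proliferating cells 9 were higher (15 in the fit with a replicate block) and 0 lower, and of 7 club cell markers 5 were lower and 0 higher. The 2 club cell markers not called were Scgb1a1 at -0.13 and Scgb3a1 at 0.08. The macrophage, lymphocyte, and fibroblast or smooth muscle markers, numbering 7, 7 and 8 measured genes, had 0 called in limma at an adjusted p under 0.05, with 0, 0 and 3 at an unadjusted p under 0.05 (0, 0 and 3 called with the block). Over all genes 22.1% had an unadjusted p under 0.05. At a limma adjusted p under 0.05, 3.36% of all genes were called higher and 5.13% lower. With the block these shares were 3.08% and 4.86%. Of the type I alveolar, neuroendocrine or neuronal, megakaryocyte or platelet, endothelial and erythroid markers, 1 of 9, 0 of 7, 1 of 5, 1 of 7 and 0 of 2 were higher and 0, 2, 0, 1 and 0 lower. With the block the club list had 4 lower, the type I list 0 higher, the neuroendocrine or neuronal list 1 lower and the erythroid list 1 higher. In pooled cells, fewer cells of a type and less RNA per cell cannot be told apart.

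The tubulins that passed the test were all higher on the arrays labelled knockout, and the modifying enzymes that passed were lower with 1 exception. Of the 17 tubulins 3 were higher, 0 were lower and 14 did not pass. Of the 17 Ttll and Agbl enzymes 7 were lower, 1 was higher and 9 did not pass. The Tubgcp subunits and the Tbc cofactors had 0 of 5 called each, with 3 and 2 at an unadjusted p under 0.05, beside 22.1% of all genes at that threshold. A gene was called at an adjusted p under 0.05 from limma, which compares the group means with the spread between pools and adjusts by Benjamini-Hochberg over all 19938 genes. By this test 3.36% of all genes were higher and 5.13% lower, while among the 44 genes 4 were higher and 7 lower. Among the 44 genes, 13 were higher on each array labelled knockout than on any control array and 13 lower, against 14.8% and 12.8% of all genes. The median log2 difference was 0.14 for the tubulins and -0.24 for the Ttll and Agbl enzymes, against 0.0033 for all genes.

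**Figure D1:**
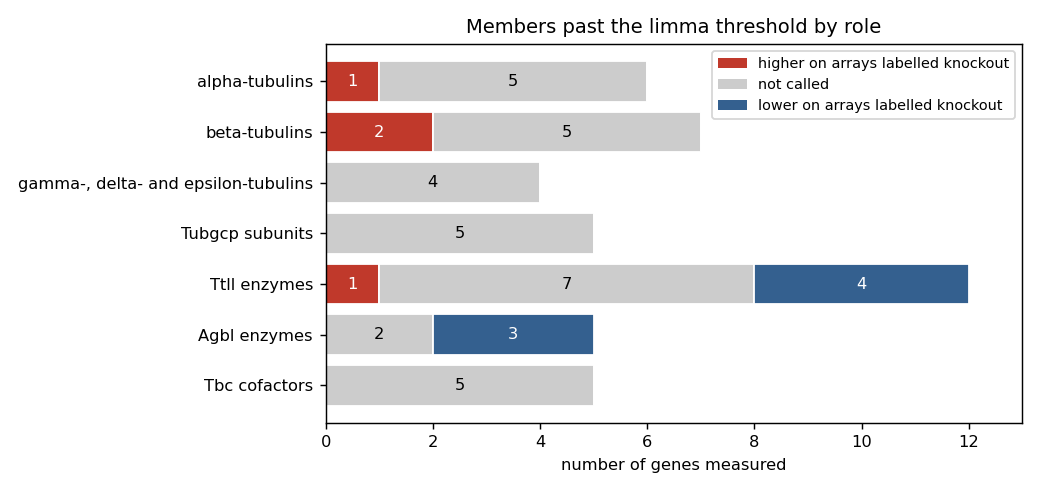
Number of genes measured in each role (horizontal axis), split into those higher on the arrays labelled knockout, those not called and those lower, by limma at an adjusted p under 0.05 with 3 arrays per group. All 7 lower genes are Ttll or Agbl enzymes, and of the 4 higher genes 3 are alpha- or beta-tubulins and 1 is a Ttll enzyme.

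Among the 6 alpha-tubulins, Tuba8, an isotype known mainly from muscle and testis, was higher. It read 8.65, 8.50 and 8.93 on the arrays labelled knockout, against 7.93, 7.77 and 7.88 on the control arrays. Each array labelled knockout lay above each control array, and the difference was 0.83 ± 0.11 (SE, n = 3 per group), a 1.78-fold higher level (limma adjusted p = 0.00731). Tuba1a, a major alpha-tubulin of developing neurons that other tissues also express, had the opposite sign without a call. It read 11.22, 11.27 and 10.58 on the arrays labelled knockout, against 11.61, 11.52 and 11.49 on the control arrays. The groups did not overlap, but the third array labelled knockout stood well below the other 2, and the difference of -0.52 ± 0.18 did not pass (limma adjusted p = 0.139, and 0.0410 with weights on the arrays). Without the third array labelled knockout the difference was -0.295 (adjusted p = 0.0629). The other 4 alpha-tubulin genes, Tuba3a, Tuba3b, Tuba4a and Tubal3, differed by 0.06 to 0.21 and were not called. Tuba3a and Tuba3b are close copies, and their probe sets may share signal.

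All 7 beta-tubulins with a probe set of their own had positive differences, and 2 of them were called. Tubb4b is not among them, because its 2 probe sets are annotated jointly with another gene. Those 2 had negative differences of -0.43 and -0.40 without a call. Tubb2a, a beta-tubulin abundant in brain, read 8.65, 8.68 and 8.91 on the arrays labelled knockout, against 8.13, 7.88 and 7.95 on the control arrays. The lowest array labelled knockout lay above the highest control array, with a difference of 0.76 ± 0.09 (1.69-fold; limma adjusted p = 0.00631). Tubb6, a beta-tubulin that many tissues make in small amounts, read 8.68, 8.76 and 8.58 on the arrays labelled knockout, against 8.11, 7.94 and 7.91 on the control arrays. Its 2 groups were likewise apart, by 0.69 ± 0.08 (1.61-fold; limma adjusted p = 0.00493). Tubb2b, the closest relative of Tubb2a, read 8.10, 7.45 and 7.73 on the arrays labelled knockout, against 7.21, 7.27 and 7.28 on the control arrays. The groups did not overlap, the arrays labelled knockout were widely spread, and the difference of 0.51 ± 0.15 was not called (limma adjusted p = 0.0954, but 0.0200 without the second array labelled knockout and 0.0286 with array weights). Tubb2a and Tubb2b are near-identical in their coding parts, so their probe sets may share signal.

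Tubb5, the beta-tubulin that most cells use, did not pass. It read 10.85, 11.01 and 10.79 on the arrays labelled knockout, against 10.77, 10.72 and 10.76 on the control arrays. Its groups lay close without overlapping, and the difference was 0.13 with a 95% interval of -0.03 to 0.29 (limma adjusted p = 0.318). Tubb1 of platelets, Tubb3 of neurons and Tubb4a of brain differed by 0.02 to 0.17, with overlapping groups and no call.

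The nucleation machinery showed small differences, none of them called. Tubg1, the main gamma-tubulin, read 9.51, 9.40 and 9.40 on the arrays labelled knockout, against 9.36, 9.35 and 9.34 on the control arrays. The groups did not overlap, and the difference of 0.09 had a 95% interval of -0.04 to 0.21 (limma adjusted p = 0.413). Tubg2, its close copy, differed by 0.14 (interval -0.02 to 0.30). Tubd1 and Tube1, the delta- and epsilon-tubulins needed for centriole microtubules, differed by -0.03 and 0.14 with overlapping groups. Among the ring subunits, Tubgcp4 read 9.58, 9.39 and 9.54 on the arrays labelled knockout, against 9.22, 9.28 and 9.30 on the control arrays. Its groups were apart, and the difference was 0.24 ± 0.06 without a call (limma adjusted p = 0.0768, but 0.0282 without the second array labelled knockout and 0.0378 with array weights). The other 4 ring subunits lay between -0.15 for Tubgcp3 and 0.15 for Tubgcp5.

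The folding cofactors were not called either. Tbcb, which binds alpha-tubulin, read 8.15, 8.25 and 8.25 on the arrays labelled knockout, against 8.12, 8.05 and 7.98 on the control arrays. The groups did not overlap, and the difference was 0.17 ± 0.06 (limma adjusted p = 0.158). Tbce, its partner in releasing alpha-tubulin, read 9.66, 9.57 and 9.62 on the arrays labelled knockout, against 9.59, 9.53 and 9.57 on the control arrays, which overlap. Its difference was 0.05 with a 95% interval of -0.07 to 0.17. Tbca, Tbcc and Tbcd differed by 0.09, -0.05 and 0.13.

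**Figure D2:**
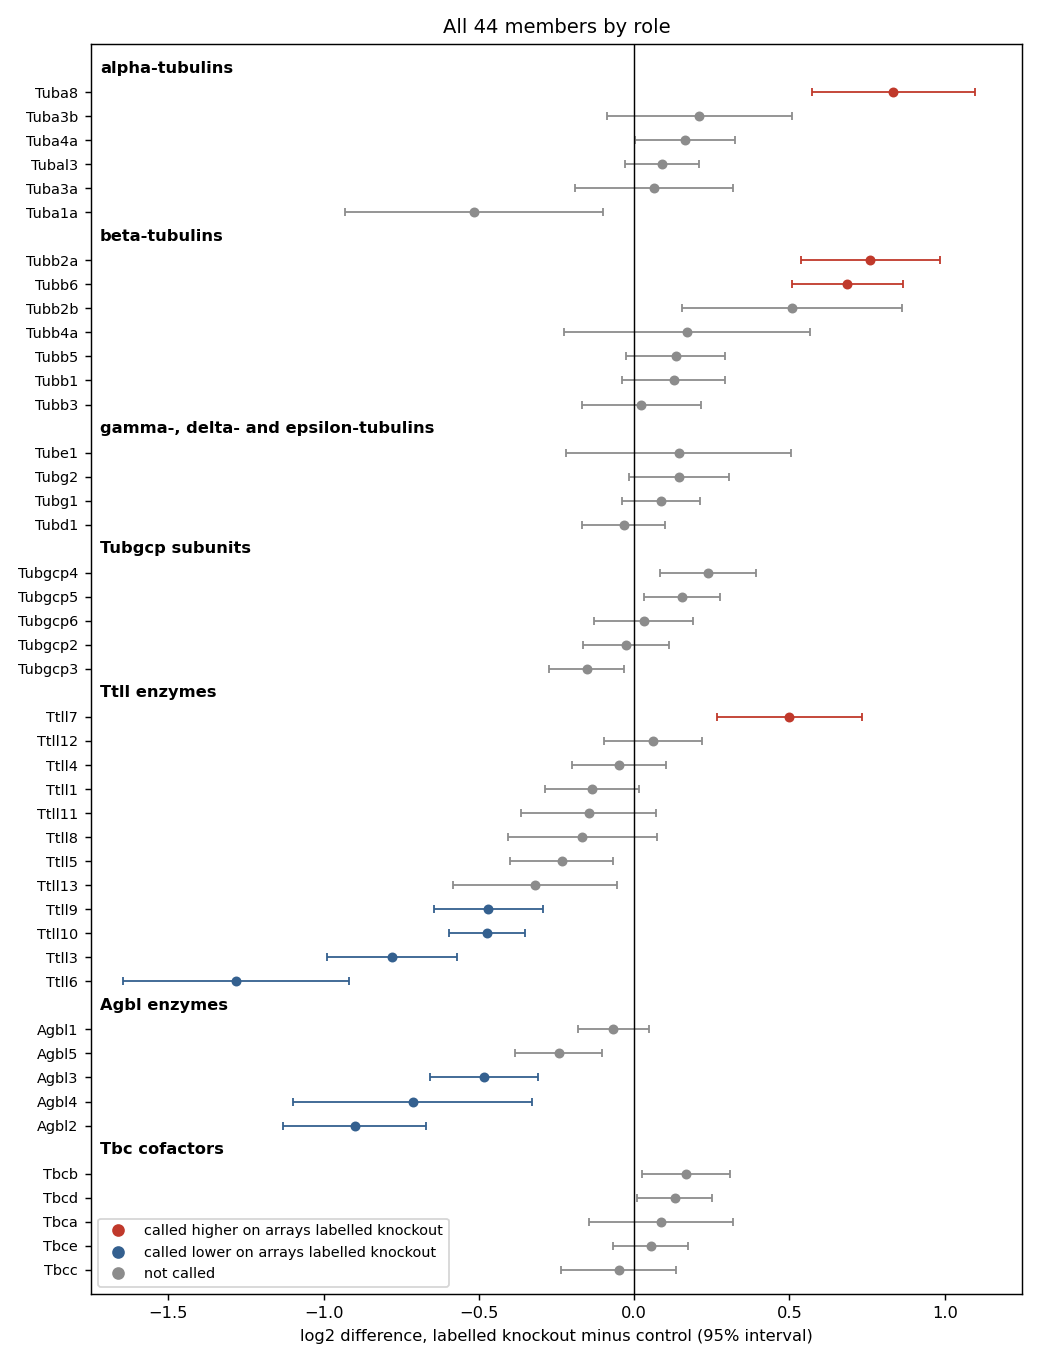
Log2 difference of each of the 44 genes, arrays labelled knockout minus control arrays (horizontal axis), with its 95% interval from limma and 3 arrays per group, sorted within each role. The genes run from Ttll6 at -1.28 to Tuba8 at 0.83. All 5 Agbl enzymes lie below 0, and all 7 beta-tubulins among the 44 genes lie above it.

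Of the 12 Ttll ligases 4 were lower, 1 was higher and 7 did not pass. Ttll6, a glutamylase that builds long side chains in cilia, had the most negative difference of the 44 genes. It read 8.04, 7.79 and 7.42 on the arrays labelled knockout, against 8.99, 8.93 and 9.18 on the control arrays. The groups lay far apart, with the arrays labelled knockout also spread among themselves, and the difference was -1.28 ± 0.15, 2.43-fold lower (limma adjusted p = 0.0057). Ttll9, another glutamylase of cilia and flagella, read 6.97, 6.83 and 6.73 on the arrays labelled knockout, against 7.35, 7.24 and 7.35 on the control arrays. These groups did not overlap, and the gene fell by 0.47 ± 0.07 on the log2 scale (limma adjusted p = 0.0126, but 0.0628 without the first and 0.0716 without the third control array).

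The ligases that add glycine instead of glutamate were measured through 3 genes, of which 2 were lower. Ttll3, which starts glycine chains on tubulin, read 8.06, 8.02 and 7.97 on the arrays labelled knockout, against 8.76, 8.65 and 8.98 on the control arrays. The arrays labelled knockout were tightly grouped below the controls, with a difference of -0.78 ± 0.09, 1.72-fold lower (limma adjusted p = 0.00511). Ttll10, which lengthens glycine chains, read 7.07, 7.06 and 7.12 on the arrays labelled knockout, against 7.55, 7.51 and 7.61 on the control arrays. Both groups were narrow and well separated, and the gene fell by 0.47 ± 0.05 on the log2 scale (limma adjusted p = 0.0049). Ttll8, also an initiating glycylase, read 5.93, 6.09 and 6.17 on the arrays labelled knockout, against 6.07, 6.21 and 6.41 on the control arrays. Those groups overlap, and the difference of -0.17 (95% interval -0.41 to 0.07) was not called.

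The 8 glutamylases did not move together. Besides Ttll6 and Ttll9, which were lower, Ttll7, which acts mainly on beta-tubulin, was higher. It read 9.19, 9.01 and 9.29 on the arrays labelled knockout, against 8.83, 8.59 and 8.57 on the control arrays. The groups were apart by 0.50 ± 0.10, 1.41-fold (limma adjusted p = 0.0263). Its call was lost without the third array labelled knockout (adjusted p = 0.0847), the second control array (0.115) or the third control array (0.114), and narrowly with sex as a covariate (0.0510). A second Ttll7 probe set read 8.75, 8.63 and 8.76 on the arrays labelled knockout, against 8.44, 8.24 and 8.38 on the control arrays. It had the same direction at 0.36 ± 0.07, without a call in a fit over all 35556 probe sets (limma adjusted p = 0.0574), of which 1.16% were called higher and 2.55% lower.

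The 5 remaining glutamylases, Ttll1, Ttll4, Ttll5, Ttll11 and Ttll13, had negative differences of -0.05 to -0.32 and no call. Ttll4 read 8.97, 9.07 and 9.03 on the arrays labelled knockout, against 9.02, 9.02 and 9.18 on the control arrays, so its groups overlap (limma adjusted p = 0.733). Ttll13 read 6.53, 6.29 and 6.53 on the arrays labelled knockout, against 6.79, 6.57 and 6.95 on the control arrays. It was not called by its adjusted p = 0.150, but passed at an adjusted p = 0.0403 in limma with the replicate block, where 3.08% of all genes were higher and 4.86% lower. Ttll12, a family member with no glutamylase or glycylase role assigned here, differed by 0.06.

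All 5 Agbl carboxypeptidases read lower on every array labelled knockout than on any control array, as did 12.8% of all genes. Of the 5, 3 were called. Agbl2, a deglutamylase found at centrioles and cilia, read 7.38, 7.15 and 7.04 on the arrays labelled knockout, against 8.13, 7.98 and 8.16 on the control arrays. The closest arrays of the groups were still far apart, and the difference was -0.90 ± 0.10, 1.87-fold lower (limma adjusted p = 0.00487). Agbl3, a related deglutamylase, read 6.33, 6.26 and 6.15 on the arrays labelled knockout, against 6.62, 6.76 and 6.81 on the control arrays. It fell by 0.48 ± 0.07 on the log2 scale, with both groups narrow (limma adjusted p = 0.0112, but 0.0622 without the second and 0.0613 without the third control array).

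Agbl4, which shortens glutamate chains, read 5.92, 5.70 and 5.22 on the arrays labelled knockout, against 6.28, 6.35 and 6.35 on the control arrays. The control arrays nearly coincided while the arrays labelled knockout were spread, and the difference was -0.71 ± 0.16 (limma adjusted p = 0.0423). This call was lost without the second array labelled knockout (adjusted p = 0.0583), with sex as a covariate (0.0742) and without control array 1 (0.123), 2 (0.151) or 3 (0.153). Agbl5, the enzyme that removes the glutamate at the branch point, read 7.65, 7.63 and 7.55 on the arrays labelled knockout, against 7.77, 7.89 and 7.90 on the control arrays. The groups did not overlap, and the difference of -0.24 ± 0.06 just missed the threshold (limma adjusted p = 0.0529, but 0.0407 among genes with a mean level of at least 6 and 0.0322 with array weights). Agbl1 differed by -0.07 and was not called.

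**Figure D3:**
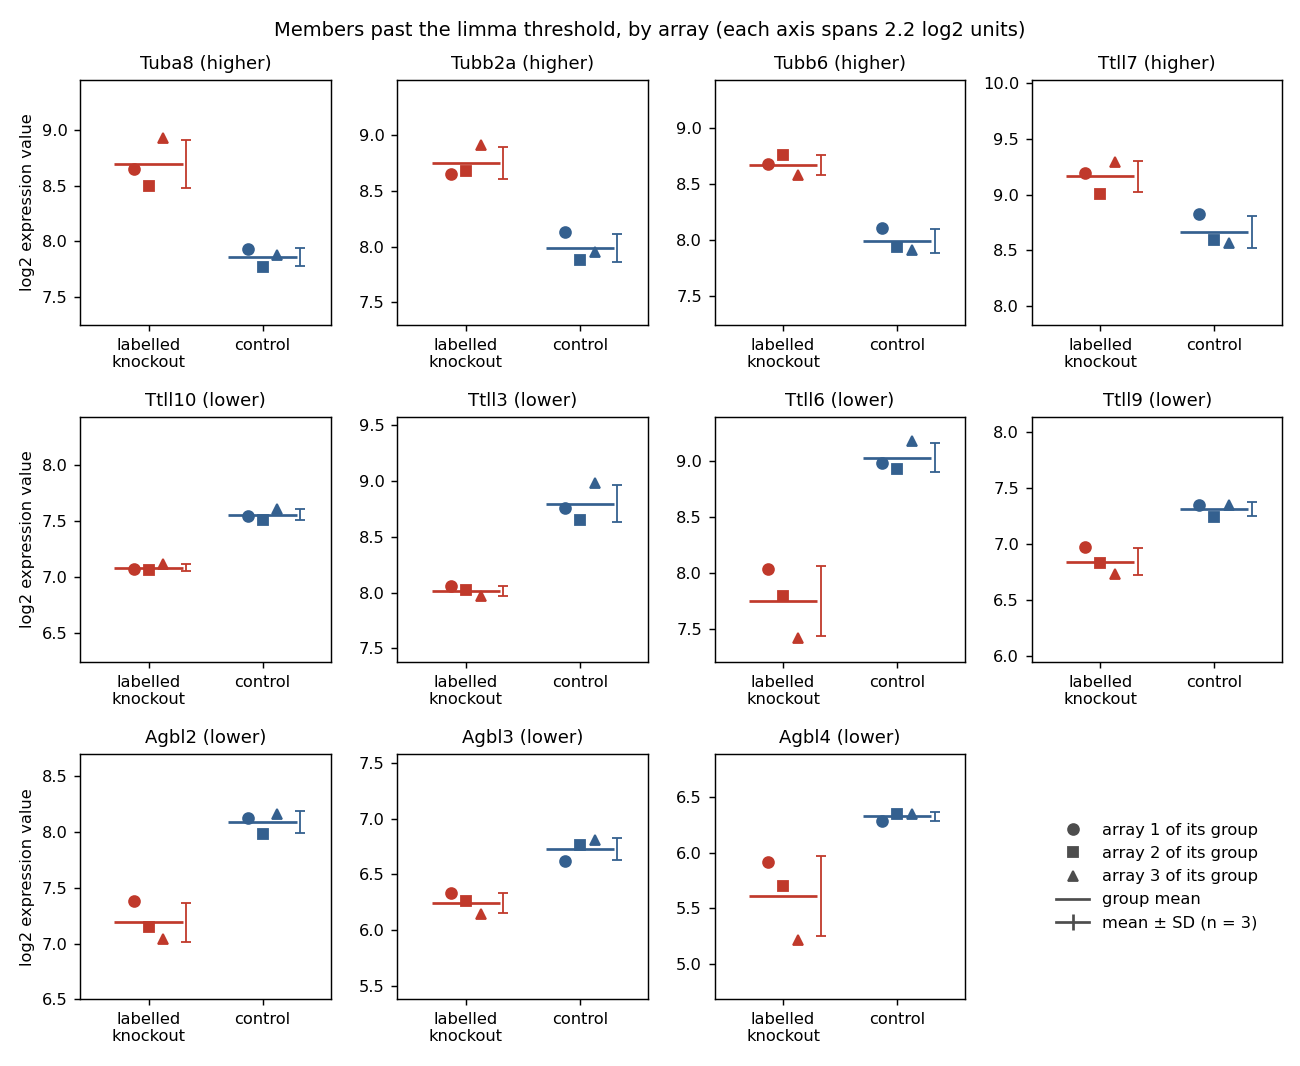
Log2 expression value (vertical axes, each spanning the same width) of the 11 called genes on the 3 arrays labelled knockout and the 3 control arrays, with each array as a point, a line at the group mean and a bar of 1 SD to either side. In all 11 panels the groups do not overlap, and the arrays labelled knockout are most spread in Agbl4 and Ttll6.

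The promoters of the lower genes are shown because the X-box, the binding site of RFX transcription factors that regulate cilia genes, is a known feature of such promoters. RefSeq windows of GRCm38.p6 ran from 250 bases before to 50 bases after an annotated start. Such windows were searched for 38 of the 44 genes, among them the 7 lower genes and 3 of the 4 higher ones. The search of the 44 genes left out any window on 1 chromosome, which the shares of all windows and of the tested genes kept. Tubb6 was the higher gene without a searched window. One arm of the X-box, GTTGCC, searched on both strands, occurred in at least 1 window of 5 of the 7 lower genes, 1 of the 3 higher genes and 3 of the 28 genes not called. It occurred in 12.5% of all 32851 windows and in at least 1 window of 14.0% of the 15614 tested genes that have one. A form with both arms, GTTNCC followed after 3 bases by GNAAC, can overlap the single arm and occurred in 2 lower genes, 0 higher genes and 0 genes not called, and in 0.804% of all windows and 1.01% of those tested genes. The forkhead site TGTTTAC, of the kind that FOXJ1 binds, occurred in 1 lower gene, 0 higher genes and 2 genes not called, and in 3.65% of all windows and 3.54% of those tested genes. The motifs were chosen with the values known, and a match is not evidence of binding. The windows of 5 lower genes with a match and of Ttll6, which has none, follow, 5′ to 3′ on the strand of the gene, with matches in capitals. Agbl2 and Ttll3 have 2 windows each, of which the one with a match is shown. They are chr6:34780182-34780481 on the plus strand for Agbl3, chr2:152962235-152962534 on the plus strand for Ttll9, chr4:156050768-156051067 on the minus strand for Ttll10, chr2:90782477-90782776 on the plus strand for Agbl2, chr6:113392213-113392512 on the plus strand for Ttll3 and chr11:96133536-96133835 on the plus strand for Ttll6.
Agbl3: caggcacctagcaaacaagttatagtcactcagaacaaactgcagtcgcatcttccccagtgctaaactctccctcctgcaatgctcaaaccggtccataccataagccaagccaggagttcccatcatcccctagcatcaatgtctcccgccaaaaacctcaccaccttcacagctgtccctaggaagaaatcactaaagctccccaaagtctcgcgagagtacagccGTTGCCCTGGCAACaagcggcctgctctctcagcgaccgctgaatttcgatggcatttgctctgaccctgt
Ttll9: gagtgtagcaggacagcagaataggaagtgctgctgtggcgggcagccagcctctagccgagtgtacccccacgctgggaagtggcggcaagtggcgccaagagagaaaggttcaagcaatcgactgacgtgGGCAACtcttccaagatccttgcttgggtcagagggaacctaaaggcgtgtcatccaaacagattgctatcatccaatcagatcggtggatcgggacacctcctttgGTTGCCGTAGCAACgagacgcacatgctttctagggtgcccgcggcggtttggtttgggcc
Ttll10: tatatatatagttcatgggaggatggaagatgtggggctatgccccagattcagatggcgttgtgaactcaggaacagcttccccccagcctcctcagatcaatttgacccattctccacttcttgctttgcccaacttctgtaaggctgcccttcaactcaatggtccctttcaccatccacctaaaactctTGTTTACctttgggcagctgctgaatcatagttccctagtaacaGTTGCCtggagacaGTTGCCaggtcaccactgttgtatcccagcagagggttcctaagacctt
Agbl2: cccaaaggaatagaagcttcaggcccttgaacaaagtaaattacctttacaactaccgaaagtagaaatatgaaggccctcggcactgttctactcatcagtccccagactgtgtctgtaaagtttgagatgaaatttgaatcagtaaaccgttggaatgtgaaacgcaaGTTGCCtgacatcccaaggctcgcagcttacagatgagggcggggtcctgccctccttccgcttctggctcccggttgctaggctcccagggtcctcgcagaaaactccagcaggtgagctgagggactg
Ttll3: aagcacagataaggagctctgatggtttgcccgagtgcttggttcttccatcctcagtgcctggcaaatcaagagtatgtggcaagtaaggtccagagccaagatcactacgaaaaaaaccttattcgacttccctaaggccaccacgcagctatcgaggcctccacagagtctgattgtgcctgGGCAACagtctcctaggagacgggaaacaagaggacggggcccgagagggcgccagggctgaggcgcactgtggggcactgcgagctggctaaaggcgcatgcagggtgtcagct
Ttll6: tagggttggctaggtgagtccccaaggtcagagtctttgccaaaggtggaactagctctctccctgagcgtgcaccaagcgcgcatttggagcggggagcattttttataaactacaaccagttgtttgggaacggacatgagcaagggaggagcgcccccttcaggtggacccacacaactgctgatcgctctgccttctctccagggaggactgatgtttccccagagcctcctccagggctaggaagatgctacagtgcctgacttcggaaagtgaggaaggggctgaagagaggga
The form with both arms reads GTTGCCCTGGCAAC in Agbl3 and GTTGCCGTAGCAAC in Ttll9. Agbl4, also lower, had no match to any of the 3 motifs in its window.

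The lower enzymes shared a pattern among the arrays labelled knockout. In 6 of the 7, all but Ttll10, the first array labelled knockout was the highest and the third array the lowest of its group, with the second array between them. The same order held in 54.2% of all genes called lower. Over all tested genes the median was 7.20 on each control array. On the arrays labelled knockout this median had the order as well, at 7.20, 7.18 and 7.13. The mean of the ciliated cell markers had it too, at 8.46, 8.08 and 7.92 on those arrays, against 9.10, 9.05 and 9.11 on the control arrays. The ciliated markers had a median difference of -1.04, beside -0.48 for the Agbl enzymes and -0.20 for the Ttll enzymes. Their part in the lower enzyme values was not tested. Among the defining markers, Foxj1 stood at -0.78 and the axonemal dynein Dnah5 at -1.13.

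The higher genes did not follow one order. Tuba8, Tubb2a and Ttll7 were highest on the third array labelled knockout, whereas Tubb6 was highest on the second. The mean of the proliferating cell markers read 8.94, 8.32 and 8.72 on the arrays labelled knockout, against 8.02, 7.83 and 8.02 on the control arrays, so it was lowest of its group on the array where Tubb6 was highest. Tuba8 and Ttll7 were also lowest of their group on that second array, and Tubb2a was lowest on the first. Tubb2b, not called, had the order of the proliferating markers. The part of proliferating cells in these values was not tested.

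**Figure D4:**
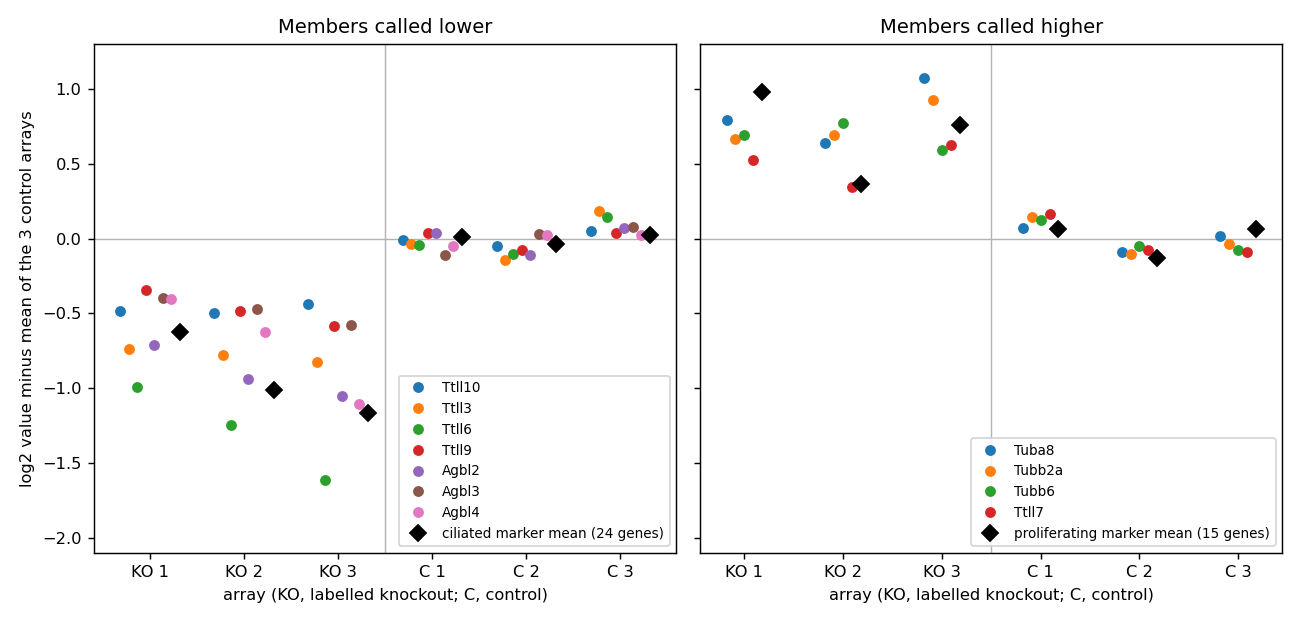
Log2 value of each called gene minus its mean over the 3 control arrays (vertical axis), by array, with lower genes on the left beside the mean of 24 ciliated cell markers and higher genes on the right beside the mean of 15 proliferating cell markers. On the left the ciliated marker mean is 8.46, 8.08 and 7.92 before centring on the arrays labelled knockout, and 6 of the 7 genes have the same order.

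Other genes of tubulin metabolism were looked at as lists. Of 7 measured tubulin modifiers outside the Ttll and Agbl families, 0 were called by limma and 1 had an unadjusted p under 0.05, the tyrosine ligase Ttl at -0.20 ± 0.07 (adjusted p = 0.148). The CCT chaperonin and prefoldin, which fold tubulin before the Tbc cofactors act, had 0 of 15 called and 2 at an unadjusted p under 0.05 (22.1% of all genes), with a median of 0.01. Of 6 relatives and partners of the folding cofactors 1 was lower, the small GTPase Arl3 at -0.47 ± 0.07 (adjusted p = 0.00905), which is known for protein transport into cilia. Anchors of the gamma-tubulin complex and augmin subunits had 0 of 16 called and 5 at an unadjusted p under 0.05, again beside 22.1% of all genes.

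Among 25 genes of microtubule dynamics and severing 5 were lower and 0 higher, beside 5.13% and 3.36% of all genes. The severing protein Fign stood at -0.80 ± 0.08 and the katanin relatives Katnal2 and Katnal1 at -0.63 ± 0.07 and -0.39 ± 0.07. The plus-end protein Mapre3 stood at -0.51 ± 0.08 and Tppp3, which is also on the ciliated marker list, at -0.60 ± 0.11. Limma adjusted p values of these 5 ran from 0.00467 to 0.0223. Kif2c, a mitotic depolymerase, stood at 0.57 ± 0.16 without a call (adjusted p = 0.0741).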

How the data were processed

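The submitters' processing notes name RMA and Affymetrix Expression Console 1.1 for the log2 values that the authors deposited. This method subtracts background, makes array distributions alike and summarises probes, so a shift shared by most genes is removed. Array medians lay between 6.77 and 6.81 over all probe sets and between 7.13 and 7.20 over the tested genes. Precision is limited by having 3 arrays per group. Nothing was left out of the 6 arrays.

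Gene names came from the platform annotation. Of 35556 probe sets, 21789 had 1 symbol, 1621 several and 12146 none, and 21698 of the 1-symbol probe sets matched RefSeq (GRCm38.p6) by Entrez identifier with 0 symbols changed. The probe set with the highest mean stood for each of 19938 genes. Groups and replicate numbers came from array titles. The first number in the titles is not explained and no value of it occurs in both groups. If it marks a batch, batch and group cannot be told apart. Arrays labelled knockout were compared with controls in limma 3.58.1 under R 4.3.3, with lmFit and eBayes (no trend), a two-sided test and Benjamini-Hochberg adjustment over all genes. No filter or block was used. The fit was tested on simulated data. P values measure the spread between pools of mice, not single animals.

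Named in full were all called genes and, in each role, the gene with the highest mean and the one with the smallest p, with called genes of each pathway list. Others were chosen after their values were seen. Genes and lists were chosen with earlier results of these data known, and the split of Ttll enzymes by function and the motifs likewise. Deviations from group means correlated at 0.192, 0.103 and 0.111 between arrays of equal number, each above the limit of 0.1 for treating numbers as pairs. This pairing rests on the values alone, and the calls given above come from the fit without a block unless stated. By Xist and Y-linked genes, the male pools were array 2 of those labelled knockout and array 1 of the controls, which differ in number. Alternatives were a replicate block, sex as a covariate (judged by Xist and Y-linked genes; 1 male pool per group), an intensity trend, a mean level of at least 6, the mean of a gene's probe sets, array weights, median centring and leaving out each array.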

Additional observations from a re-analysis of the deposited data

How the results depend on the processing

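The 4 higher and 7 lower calls among the 44 genes were 3 to 6 and 4 to 7 when single arrays were left out, the fewest lower calls, 4, being without the third control array. Over all genes, such fits called 144 to 835 higher and 301 to 1265 lower. Tuba8, Tubb2a, Tubb6, Ttll3, Ttll6, Ttll10 and Agbl2 were called in each of these 6 fits, with adjusted p of up to 0.0466, and in the 7 other alternatives. Ttll4, not called, had a difference of -0.077 to 0.0033 over the 6 fits, positive without the third control array. The cause was not tested. With the replicate number as a block, used because the numbers may pair the arrays, 4 genes were higher and 8 lower. Ttll13 was the gene added (adjusted p = 0.0403), and the block changed no other call among the 44 genes. With array weights the counts were 6 and 9, and with sex as a covariate 3 and 6. Agbl4, with a mean level below 6, was not tested under that filter.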

Other observations

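The 7 probe sets whose annotation joins several symbols give values that no single gene can claim. In a fit over all 35556 probe sets, where 1.16% were called higher and 2.55% lower, 0 of the 7 were called by limma, and 3 had an unadjusted p under 0.05. The probe set annotated jointly to Tubb2a, Tubb2b and a related pseudogene read 6.44, 6.08 and 6.28 on the arrays labelled knockout, against 5.85, 5.75 and 5.67 on the control arrays (difference 0.51 ± 0.10; adjusted p = 0.0568). The groups did not overlap. The 4 probe sets annotated jointly to the Tuba1 genes differed by -0.08 to -0.11, at values of 11.81 to 12.51 on the arrays labelled knockout and 12.00 to 12.58 on the control arrays. The 2 probe sets annotated jointly to Tubb4b and another gene differed by -0.43 ± 0.10 and -0.40 ± 0.09 (adjusted p = 0.0834 and 0.0800). On both of these, each array labelled knockout lay below each control array. A second probe set of Tubgcp6 differed by -0.03, against 0.03 for the one used, and neither was called.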
